A study of Homo sapiens with 12 samples.

Results

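The PIM kinases PIM1, PIM2 and PIM3 were followed across 12 single-color Agilent oligonucleotide arrays of human proximal tubular cells (HPTCs). Their probes were taken by gene name, which gave 1 probe for each gene, or 3 of the 34127 probes on the array, and 3 of its 25992 gene and transcript names. The family was chosen by an earlier result of these arrays, the large IL-1β response of PIM2, so the IL-1β values of all 3 genes are given as a description without a test.

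Cells of the HK-2 line, which is immortalized with papillomavirus genes, and of the RPTEC/TERT1 line, which is immortalized with telomerase, were starved of serum and supplements at normal glucose. They then received IL-1β at 10 ng/mL, empagliflozin (Empa) at 500 nM or no ligand (control), and RNA was taken after 24 h. Empa is an inhibitor of the sodium-glucose cotransporter SGLT2, and IL-1β drives inflammation. Each combination of line and treatment had 2 replicate arrays, described as biological duplicates, and no array carried cells that received both agents. Both lines are single immortalized lines, so the spread between their arrays is that of cultures and not of people. The arrays lay on 4 slides, which are named here by line and replicate number (HK-2 slide 1 holds the control, IL-1β and Empa arrays of HK-2 replicate 1), and a line's slides were scanned on 2 different days.

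PIM kinases are serine/threonine kinases of the cytoplasm and nucleus that promote cell survival, growth and passage through the cell cycle. They have no regulatory domain and are active once made, so their activity is set largely by how much RNA and protein a cell makes and by how fast the protein is degraded. Cytokine receptors that signal through Janus kinases (JAKs) and STAT factors are known inducers of the family in blood cells, and NF-κB is another known inducer of PIM2.

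RefSeq holds a promoter entry for 3 of the 3 genes. The 250 bases before each gene's start are shown because the 3 genes were higher with IL-1β by different amounts, and the windows differ in their makeup. Sequences run 5′ to 3′ on the gene's strand of GRCh38.p14, at chr6:37169902-37170151 (PIM1, plus strand), chrX:48919025-48919274 (PIM2, minus strand) and chr22:49960522-49960771 (PIM3, plus strand). Capitals mark matches, on either strand, to the octamer ATGCAAAT, the CCAAT box and the GC box GGGCGG, which were looked for after the sequences had been read.
PIM1: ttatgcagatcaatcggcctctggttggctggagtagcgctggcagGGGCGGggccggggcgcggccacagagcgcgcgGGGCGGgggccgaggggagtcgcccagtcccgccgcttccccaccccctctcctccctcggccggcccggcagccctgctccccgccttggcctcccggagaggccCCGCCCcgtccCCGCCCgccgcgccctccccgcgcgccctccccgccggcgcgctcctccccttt
PIM2: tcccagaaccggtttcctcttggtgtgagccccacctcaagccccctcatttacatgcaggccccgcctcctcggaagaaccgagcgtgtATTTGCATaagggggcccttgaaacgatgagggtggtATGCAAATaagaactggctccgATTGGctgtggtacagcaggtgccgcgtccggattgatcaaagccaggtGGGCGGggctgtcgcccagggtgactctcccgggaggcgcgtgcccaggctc
PIM3: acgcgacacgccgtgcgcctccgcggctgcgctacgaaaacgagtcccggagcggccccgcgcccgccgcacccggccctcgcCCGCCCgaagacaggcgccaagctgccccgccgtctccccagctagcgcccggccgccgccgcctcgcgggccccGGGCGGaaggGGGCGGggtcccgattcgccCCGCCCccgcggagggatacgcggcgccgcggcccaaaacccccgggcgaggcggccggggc
The PIM2 window held 2 octamers, 160 to 153 and 123 to 116 bases before the start, with a CCAAT box at 101 to 97 and a GC box at 52 to 47. An octamer was present in 1.63% of the 35116 promoters of the table, a CCAAT box in 32.0% and a GC box in 42.6%. The windows of PIM1 and PIM3 held 4 GC boxes each and neither of the other motifs. Guanine and cytosine made up 79.6% of the PIM1 window, 82% of the PIM3 window and 61.2% of the PIM2 window, more than in 96.3%, 98.3% and 57.0% of all promoters. Matches to a STAT motif (TTCNNNGAA, in 6.57% of promoters) or to the NF-κB consensus (in 5.21%) were not in these windows, which says nothing of the factors' binding there or elsewhere. Motif matches are letters only and no measurement of binding.

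The 3 array probes were 60 bases long and lay, per the array annotation on hg19, at chr6:37143102-37143161 for PIM1, chrX:48770771-48770830 for PIM2 and chr22:50357570-50357629 for PIM3. All 3 were well above background on 12 of 12 arrays and saturated on 0, so no PIM gene was lost to the filter on dim probes. The PIM3 spot on the array of HK-2 Empa replicate 2 was marked as non-uniform by the scanner software, was left out of the means and the fit, and is given separately. Values are log2 levels relative to the 75th percentile of the array's signals, which lay between 298 and 765 signal units. They compare arrays for 1 probe and not the 3 genes with each other.

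A feature of the arrays bears on every result. Across 15329 probes, the control array of HK-2 slide 1 correlated with that of RPTEC/TERT1 slide 2 at r = 0.984, and that of HK-2 slide 2 with that of RPTEC/TERT1 slide 1 at r = 0.973. Within a labelled line the correlations were 0.880 (HK-2) and 0.875 (RPTEC/TERT1). The arrays thus went against the line labels, and the titles, from which the lines were taken, could not be checked, while another label names HK-2 for all 12 arrays. Values are therefore given by slide, since differences within a slide do not use the line label. The 2 pairs of alike slides were defined from these correlations, are no groups of the study and were not tested against each other. Of 13 proximal tubule markers, 7 were well above background on 12 arrays (LRP2, SLC5A2, SLC22A8, AQP1, GGT1, MME and SLC3A1) and 2 on none (SLC22A6 and HNF4A). With IL-1β, some of these markers were lower on the slides where the PIM genes were higher. LRP2 had a mean log2 difference of -2.44 and was lower on 4 of 4 slides, as was SLC3A1 with -3.08. So were GGT1 (-0.45), SLC5A2 (-0.66) and, over all genes, 3898 of 15652. SLC22A8 (0.009), AQP1 (-0.18) and MME (-0.19) were lower on some slides and higher on others. ANPEP was higher with IL-1β on HK-2 slide 1, at 1.02 against -1.24, and on RPTEC/TERT1 slide 2, at 0.85 against -1.38. The summed level of the list, in multiples of the 75th percentile, was 3.11 to 48.9 on control arrays and 1.77 to 8.47 on IL-1β arrays, and its part in the PIM values was not tested. The sum separated the pairs of slides. Control sums were 48.3 and 48.9 on HK-2 slide 1 and RPTEC/TERT1 slide 2. They were 4.73 and 3.11 on HK-2 slide 2 and RPTEC/TERT1 slide 1. SLC3A1 control levels were 5.44, 5.45, -2.41 and -2.21 in the same order. Of 5 epithelial markers, 4 were well above background on 12 arrays. The other, CDH1, was so on 6, those of HK-2 slide 1 and RPTEC/TERT1 slide 2.

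Without a ligand, PIM1 was the member whose level differed most between slides. The log2 level of PIM1 in control cells was 0.01 on HK-2 slide 1 and -0.32 on RPTEC/TERT1 slide 2. On HK-2 slide 2 and RPTEC/TERT1 slide 1 it was 1.38 and 1.17. The latter pair of slides lay above the former, with 3.25-fold between the lowest and the highest control array and a gap of 1.17 on the log2 scale between the pairs. A gap of that size or more, in either direction, was found for 16.9% of the 15795 genes with 4 control values, and a gap of any size for 66.9%.

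PIM2 control levels were -1.60 (HK-2 slide 1), -1.21 (RPTEC/TERT1 slide 2), -1.61 (HK-2 slide 2) and -1.66 (RPTEC/TERT1 slide 1). They spanned 1.37-fold, with RPTEC/TERT1 slide 2 above the other three. PIM3 control levels were 2.44, 2.51, 2.91 and 2.90 on the slides in the same order. They spanned 1.38-fold, and the pair of slides with the higher PIM1 level also had the higher PIM3 level.

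**Figure D1:**
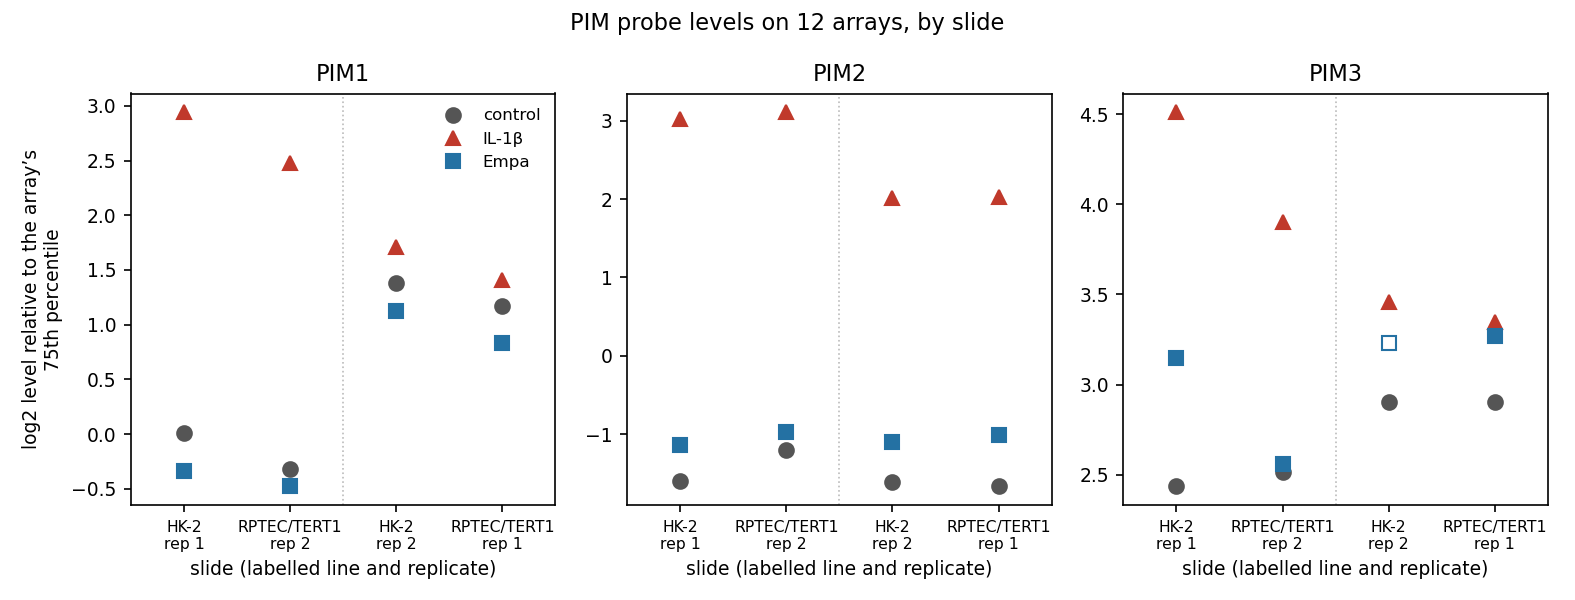
Log2 level relative to the 75th percentile of the array (vertical axis, a different range for each gene) of the PIM1, PIM2 and PIM3 probes on the 12 arrays, by slide; each symbol is 1 array (circle, control; triangle, IL-1β; square, Empa), the open square is the PIM3 spot marked as non-uniform, and the dotted line separates the pairs of alike slides. The IL-1β array is the highest on each slide for each gene, while the Empa array lies below control for PIM1 and above control for PIM2 and PIM3.

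With IL-1β, all 3 PIM genes were higher than control on 4 of 4 slides, and the size of the difference separated them. Over all genes, 15.0% of 15652 were higher on 4 of 4 slides. Since PIM2 was known from this contrast when the family was picked, nothing is read from the count.

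PIM2, which is best known from lymphoid cells, had the largest IL-1β difference of the family on every slide. Its log2 level with IL-1β was 3.03 (HK-2 slide 1), 3.11 (RPTEC/TERT1 slide 2), 2.01 (HK-2 slide 2) and 2.03 (RPTEC/TERT1 slide 1). Against the control array of the same slide this was 24.7-fold, 19.9-fold, 12.3-fold and 12.9-fold higher. The mean log2 difference was 4.06 ± 0.49 (SD, n = 4 slides), or 16.7-fold. All 4 IL-1β arrays lay above all control and Empa arrays. Of the 15995 genes compared, 51 had a larger mean difference than PIM2, and 14 had a larger value of the smallest difference over the slides. The size depended on the processing, with a mean of 3.50 after another background correction (normexp) and 3.25 in the authors' table. In that table HK-2 slide 1, here the slide of the largest difference, had the smallest, 7.81-fold, against 13.7-fold on RPTEC/TERT1 slide 2, 8.51-fold on HK-2 slide 2 and 9.04-fold on RPTEC/TERT1 slide 1.

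PIM1, the founding member of the family and a classical STAT target, split the slides. The log2 level with IL-1β was 2.94 on HK-2 slide 1 and 2.48 on RPTEC/TERT1 slide 2, where it was 7.64-fold and 6.95-fold above control. It was 1.71 on HK-2 slide 2 and 1.41 on RPTEC/TERT1 slide 1, where it was 1.26-fold and 1.17-fold above control. The larger response thus lay on the slides with the lower control level, and the IL-1β levels there passed those of the other slides. The mean over 4 slides, 1.57 ± 1.49 (SD) on the log2 scale, described neither pair, whose means were 2.87 and 0.28. Grouping by labelled line (1.63 for HK-2 and 1.51 for RPTEC/TERT1) or by scan day (1.58 and 1.56) did not show the split, because each of those groups holds 1 slide of each pair. A gap between the pairs of at least PIM1's size, 2.47 on the log2 scale, was found for 1.49% of 15652 genes, while a gap of any size was found for 58.1%.

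PIM3, the member first described as kinase induced by depolarization, had the smallest mean difference of the family. Its log2 level with IL-1β was 4.51, 3.90, 3.46 and 3.35 on HK-2 slide 1, RPTEC/TERT1 slide 2, HK-2 slide 2 and RPTEC/TERT1 slide 1. The differences from control were 4.21-fold, 2.61-fold, 1.47-fold and 1.36-fold, and their mean log2 difference was 1.11 ± 0.77 (SD, n = 4 slides), or 2.16-fold. The order of the slides was that of PIM1, with a gap between the pairs of 0.83 on the log2 scale. For PIM2 this gap was 0.62, with the larger differences again on HK-2 slide 1 and RPTEC/TERT1 slide 2, as for 28.5% of all genes. In the authors' table PIM1 and PIM3 kept a gap in this direction, of 1.82 and 0.78, and PIM2 had none, since HK-2 slide 1 (2.97) lay below both slides of the other pair (3.09 and 3.18). In these bulk samples, a response of fewer cells and a smaller response per cell cannot be told apart.

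**Figure D2:**
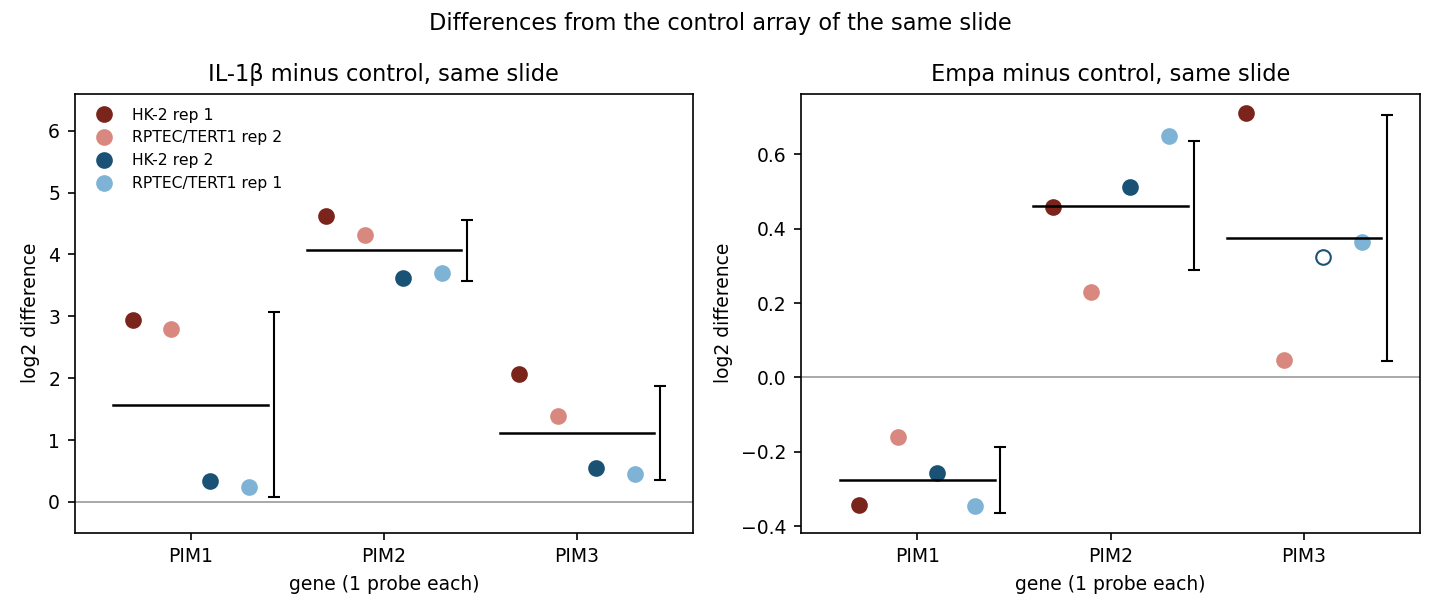
Log2 difference of the IL-1β array (left) and the Empa array (right, a narrower vertical range) from the control array of the same slide, for the 3 PIM probes; each point is 1 slide, the horizontal line is the mean, the bar its SD over slides, and the open point, not in the mean, is the PIM3 spot marked as non-uniform. With IL-1β the PIM2 differences lie between 3.62 and 4.63 while those of PIM1 and PIM3 separate the pairs of slides, and with Empa the largest difference is 0.71.

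The Empa contrast was not used to pick the family, but it shares its control arrays with the IL-1β contrast. PIM1 had log2 levels with Empa of -0.34 (HK-2 slide 1), -0.48 (RPTEC/TERT1 slide 2), 1.13 (HK-2 slide 2) and 0.83 (RPTEC/TERT1 slide 1). These were below the control array on 4 of 4 slides, as for 13.8% of 15656 genes, with a mean log2 difference of -0.28 ± 0.088 (SD). PIM2 had log2 levels of -1.14, -0.98, -1.10 and -1.02 on the slides in the same order. These were above control on 4 of 4 slides, as for 12.5% of genes, with a mean difference of 0.46 ± 0.17 (SD), or 1.38-fold. PIM3 had log2 levels of 3.15, 2.56 and 3.27 on HK-2 slide 1, RPTEC/TERT1 slide 2 and RPTEC/TERT1 slide 1. These were above control on 3 of 3 slides by 0.37 ± 0.33 (SD), and the spot marked as non-uniform, at 3.23, was 0.32 above its control. In the authors' table the mean Empa differences were smaller in size. They were -0.13 ± 0.15 for PIM1, 0.24 ± 0.16 for PIM2 and 0.31 ± 0.18 for PIM3 (SD over 4 slides).

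No PIM gene passed the test with Empa in any of the 3 fits. In the limma fit to 12 arrays with 6 groups, the log2 fold change was -0.28 with an SE of 0.60 for PIM1, 0.46 with an SE of 0.34 for PIM2 and 0.34 with an SE of 0.39 for PIM3, without its marked spot. The Benjamini-Hochberg adjusted p was 1 for each, and the unadjusted limma p was 0.659, 0.206 and 0.416. Across all 15995 genes the same fit called 0.0% in either direction, while 203 genes had an unadjusted p under 0.05. With the replicate number (the slide) as a block, which again called 0.0% of genes, the adjusted p was 0.875, 0.604 and 0.813, and with 1 effect per treatment over the 4 slides, which called 0.00625% of genes higher and 0.0% lower, it was 0.826, 0.438 and 0.717. The Empa difference between the labelled lines had an adjusted p of 1 for each gene. Each of the 3 fits used 1 estimate of a gene's spread for all 12 arrays. That estimate takes in the IL-1β arrays and, without a block, the unlike slides of a labelled line. PIM1 had an SE of 0.60 without and 0.57 with the block, while its Empa differences within slides had an SD of 0.088. The SE and p are therefore no measure of the spread of the Empa differences within slides. Within slides, the mean PIM1 difference stayed between -0.31 and -0.25 when any 1 slide was left out. In the fit without a block, where leaving out 1 array compares unlike slides, the sign of PIM1 turned, and the log2 fold change was 0.09 without HK-2 Empa replicate 1, 0.07 without HK-2 control replicate 2, 0.10 without RPTEC/TERT1 control replicate 1 and 0.05 without RPTEC/TERT1 Empa replicate 2.

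By slide, the order of the arrays differed within the family. PIM1 ran from IL-1β through control to Empa on 4 of 4 slides, which is the direction by which the study picked its genes, and 1.32% of 15570 genes had IL-1β above and Empa below control on each slide. On HK-2 slide 2, however, the authors' table had Empa 0.04 above control for PIM1. The study's own list of genes with that direction does not hold PIM1. PIM2 ran from IL-1β through Empa to control on 4 of 4 slides, an order shared by 0.97% of genes, and PIM3 did so on the 3 slides without the marked spot and, with that spot kept, on the fourth. In the authors' table, however, PIM3 was higher with Empa than with IL-1β on 2 slides. The log2 values there were 11.94 against 11.89 on RPTEC/TERT1 slide 1 and 12.58 against 12.52 on HK-2 slide 2.

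Genes around the PIM kinases were taken from 7 lists with 84 genes, all on the array, of which 77 could be tested. CDC25C, RUNX3, ABCG2, CTF1 and CXCR4 did not pass the filter on dim probes, and STAT6 and SND1 were bright but had no value in some group once spots marked as outliers were left out. Without a block, limma called 0 of the 77 genes for IL-1β, against 0.0375% of all genes called higher and 0.0188% called lower, and the unadjusted p was under 0.05 for 11 higher and 4 lower genes. With the replicate block it called 8 higher and 5 lower, against 2.09% and 3.56% of all genes. With 1 effect per treatment the counts were 14 and 7, against 4.65% and 7.88%. For Empa it called 0 of 77 in each of these fits, and the unadjusted p was under 0.05 for 0 genes without a block and for 3 higher and 3 lower genes with it. The adjusted p-values that follow are from limma with the replicate block and the Benjamini-Hochberg method, and values after ± are SDs over the 4 slides. Without the block none of these genes passed.

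Upstream of the PIM genes, 3 of 9 tested genes of the IL-6 family of ligands and receptors rose with IL-1β. IL6, the cytokine that signals through gp130 to JAKs and STAT3, had a mean log2 difference of 6.95 ± 2.59 (adjusted p = 0.0114). IL11 had 2.84 ± 0.62 (adjusted p = 0.0195) and LIF had 1.40 ± 0.54 (adjusted p = 0.0447), and both are ligands of the same receptor subunit. Of the receptor chains in the list none was called, and the list's median was 0.54 against -0.11 over all genes.

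Of 10 tested JAK and STAT genes, 0 were called in either direction, and the median was -0.03. JAK3, the kinase of the common gamma chain receptors, had the largest mean, -1.54 ± 0.77 (adjusted p = 0.0566), and was lower on 4 of 4 slides. STAT5A, named after its values were seen, was well above background on 4 of 4 IL-1β arrays and 2 of 4 control arrays. On HK-2 slide 1 and RPTEC/TERT1 slide 2 the control arrays were not well above background, so no size is given there, and the IL-1β levels were -2.31 and -2.50. On HK-2 slide 2 and RPTEC/TERT1 slide 1 the differences were -0.74 and -0.17.

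Among 14 STAT-induced genes, 1 was called higher and 3 lower. BCL6, a transcriptional repressor, rose by 1.69 ± 0.51 (adjusted p = 0.0132). SOCS2, a feedback inhibitor of cytokine receptors, fell by 2.51 ± 0.11 (adjusted p = 0.00383). CISH, an inhibitor of the same family, fell by 1.81 ± 0.44 (adjusted p = 0.011). FOS was called lower too, but it was well above background on 1 of 4 control arrays and on 0 IL-1β arrays, so no size is given. Other genes of this list had no call, among them SOCS3, the main feedback inhibitor of gp130, with a mean of -0.13, and the list's median was -0.10. PIM1 and PIM3, which also belong to this class, had 1.57 and 1.11, and BCL6 and IRF1 (1.69) had larger means than both. IRF1 split the slides as PIM1 did, with 2.81 and 3.48 on HK-2 slide 1 and RPTEC/TERT1 slide 2. On HK-2 slide 2 and RPTEC/TERT1 slide 1 it had 0.06 and 0.39. BCL6 was below PIM1 on HK-2 slide 1 (2.27 against 2.93) and RPTEC/TERT1 slide 2 (1.86 against 2.80). It was above PIM1 on the other slides.

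The NF-κB list stood highest, with a median of 1.68 and with 10 of 10 means above 0, where 39.8% of all genes had a mean above 0. NFKBIA, the inhibitor that NF-κB induces against itself, rose by 3.69 ± 1.31 (adjusted p = 0.0114) and was the 1 gene of the list that was called. RELB, an NF-κB subunit named after its values were seen, split the slides as PIM1 did, with 3.72 and 3.35 on HK-2 slide 1 and RPTEC/TERT1 slide 2 and 0.43 and -0.10 on the others. On HK-2 slide 1 and RPTEC/TERT1 slide 2, 8 of 9 genes with 4 differences had both of their larger values, as did 42 of 72 over all lists and 28.5% of all genes.

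**Figure D3:**
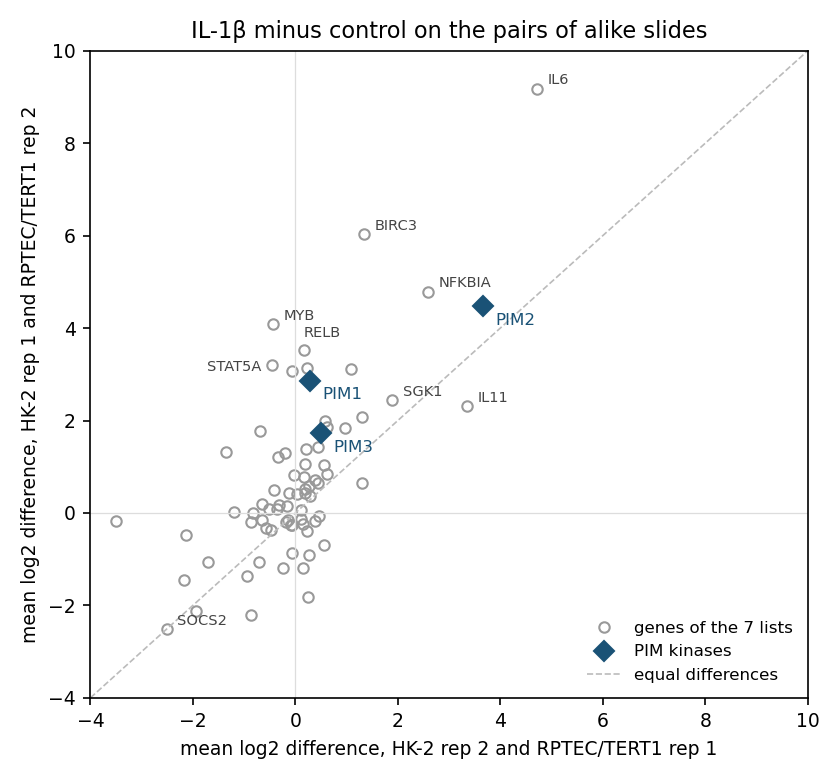
Mean log2 difference between IL-1β and control on HK-2 slide 2 and RPTEC/TERT1 slide 1 (horizontal) and on HK-2 slide 1 and RPTEC/TERT1 slide 2 (vertical), for the 3 PIM kinases (diamonds) and the 72 list genes with 4 differences (circles), with the dashed line at equal differences. PIM1, at 0.28 and 2.87, lies far above the line near RELB, and PIM2, at 3.66 and 4.47, lies close to it. STAT5A is drawn from measured values although its control arrays in the vertical direction were not well above background.

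Downstream, PIM substrates moved in both directions. Of 21 tested, 2 were called higher and 2 lower, and the median was -0.008. RUNX1, a transcription factor, rose by 0.97 ± 0.39 (adjusted p = 0.0447). MAP3K5, the stress kinase ASK1, which PIM1 phosphorylates, was called higher, with 1.94 in the block fit (adjusted p = 0.0118). Its differences on the 3 slides with a value were 1.94 (RPTEC/TERT1 slide 2), 2.14 (HK-2 slide 2) and 1.32 (RPTEC/TERT1 slide 1). NFATC1, a transcription factor activated by PIM1, fell by 1.15 ± 0.27 (adjusted p = 0.0171), and NUMA1, a mitotic spindle protein, fell by 0.88 ± 0.31 (adjusted p = 0.0374). The transcripts say nothing of the phosphorylation of these proteins.

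Of the chaperones and phosphatase subunits that stabilize or degrade PIM protein, 0 of 6 were called. HSPA1A, an HSP70 chaperone, had the largest mean, 0.55 ± 0.30 (adjusted p = 0.294). Among 10 kinases of the AKT, SGK and S6 families, which share substrates with PIM kinases, SGK1 was the 1 called. It rose by 2.17 ± 0.35 (adjusted p = 0.00653), and the median of that list was 0.05.

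**Figure D4:**
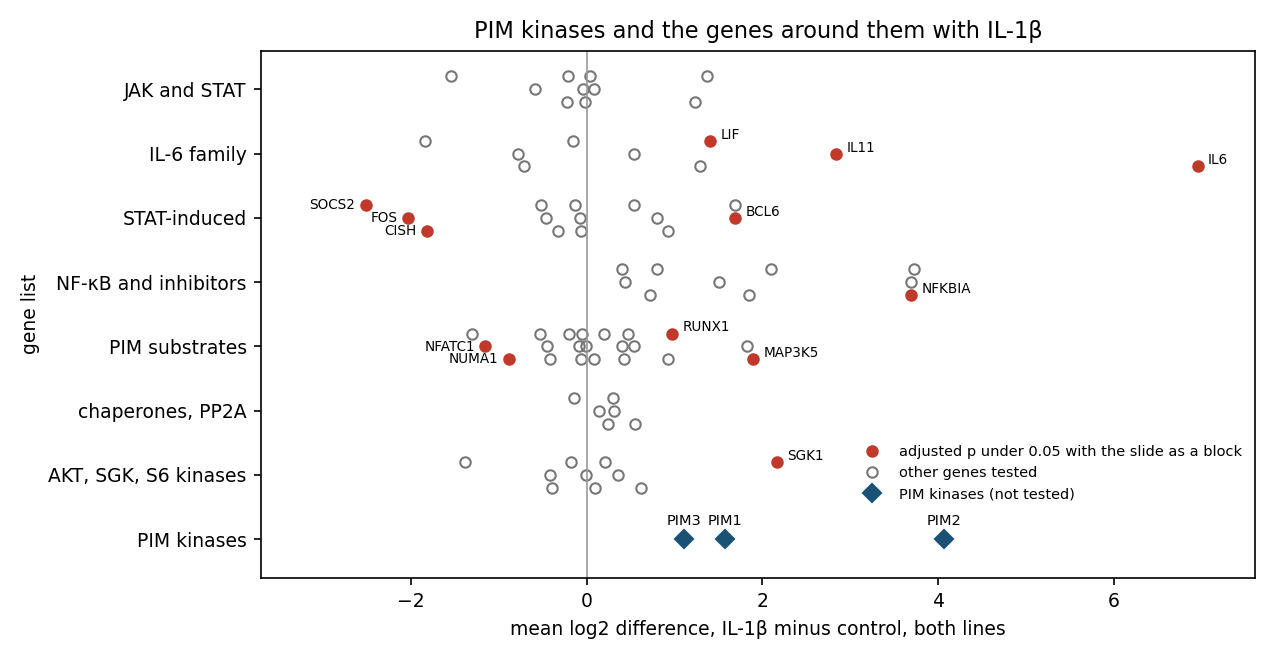
Mean log2 difference between IL-1β and control over both lines (horizontal) for the tested genes of each list (rows) and the 3 PIM kinases (diamonds); filled circles are genes with an adjusted p under 0.05 in limma with the slide as a block, and the vertical spread of circles within a row has no meaning. FOS was not well above background on any IL-1β array, so its place on the axis is uncertain. PIM2, at 4.06, lies beyond every list gene except IL6, while the row of JAK and STAT genes has no filled circle.

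Genes whose log2 level ran most like that of a PIM gene over the arrays differed between the members. For PIM1 over 12 arrays these were EBI3 (r = 0.989), CSF1 (0.974) and SNAP25 (0.970). EBI3 was well above background on 8 of the 12 arrays, those being 4 of 4 with IL-1β, 2 of 4 control and 2 of 4 Empa arrays. Only its IL-1β groups had both arrays detected. It thus passed the filter through the groups in which it was high, and its r depends on values near background. For PIM2 they were MIR146A (0.993), ZC3H12A (0.980) and CSF3 (0.975). CSF3 was well above background on the 4 IL-1β arrays only and at the floor on the other 8, so it passed the filter through the group in which it was high, and its r depends on the floor. For PIM3 over 11 arrays they were SAMD4A (0.970), ARFGAP3 (0.949) and LHFPL2 (0.947). Within the family, the levels correlated at r = 0.766 for PIM1 and PIM2, 0.866 for PIM1 and PIM3 and 0.851 for PIM2 and PIM3. Relative to the slide's mean, the most alike genes were MOCOS (0.996), PI3 (0.995) and IL4I1 (0.994) for PIM1, MIR146A (0.996) and PLAT (0.987) for PIM2 beside a transcript without a gene name (0.988), and C4orf46 (0.995), C3orf52 (0.991) and ERO1L (0.989) for PIM3. PI3 was well above background on 11 arrays and PLAT on 9. The arrays share slides and treatments, so these values describe the pattern only.

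Markers of other cell types were checked because PIM genes are abundant in blood cells. Of 8 leukocyte markers with a probe, 2 (PTPRC and CD68) were well above background on 12 arrays. The summed level of the 8 was 0.538 to 2.75 times the 75th percentile on control arrays, 1.64 to 2.55 on IL-1β arrays and 0.452 to 2.27 on Empa arrays. Within slides, the difference of the sum with IL-1β was larger on the slides where that of PIM1 was, with 0.70 and 1.61 on the log2 scale on HK-2 slide 1 and RPTEC/TERT1 slide 2 and -0.52 and 0.02 on HK-2 slide 2 and RPTEC/TERT1 slide 1. CD68, a lysosomal protein of macrophages that other cells also make, had a mean log2 difference of 1.04 with IL-1β and was higher on 3 of 4 slides. With Empa it had -1.04 and was lower on 4 of 4 slides. PTPRC, the defining leukocyte marker, had -0.03 with IL-1β and 0.05 with Empa.

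Of 5 fibroblast markers, 0 were well above background on 12 arrays, but COL1A1 was on 11, DCN on 8 and LUM on 6. The summed level of the 5 separated the pairs of slides. With control, IL-1β and Empa it was 9.77, 11.6 and 6.19 times the 75th percentile on HK-2 slide 2 and 9.66, 9.39 and 4.83 on RPTEC/TERT1 slide 1. On HK-2 slide 1 and RPTEC/TERT1 slide 2 it was between 0.0612 and 0.212. DCN and LUM carried the higher control sums. Their log2 levels were 2.69 and 1.70 on HK-2 slide 2 and 2.69 and 1.65 on RPTEC/TERT1 slide 1. COL1A1 went the other way in control, at -2.84 and -3.07 on HK-2 slide 1 and RPTEC/TERT1 slide 2. It was -4.61 (not well above background) and -4.41 on HK-2 slide 2 and RPTEC/TERT1 slide 1. The slides with the higher DCN and LUM levels were those with the higher PIM1 control level and the smaller PIM1 difference with IL-1β. Of 4 endothelial markers, 1 (CDH5) was well above background on 12 arrays, with a sum of 0.147 to 0.397 over all arrays, and KDR was on none. The part of these markers in the PIM values was not tested.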

How the data were processed

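RNA of 12 cultures was hybridized to Agilent Human 4x44K v2 arrays. The authors deposited Feature Extraction 9.5.3.1 files, whose intensities were corrected for background and spatial trend per the file headers and were not normalized between arrays, and a table of log2 values described as quantile-normalized. Line, treatment and replicate number came from the sample titles. Here control spots and spots marked as outliers (1.06% to 1.61% of an array) were left out, spots of a probe averaged, signals scaled to the array's 75th percentile, floored at 1 signal unit and log2-transformed. On an array, between 53.5% and 63.8% of probes were well above background. For each of 15995 genes the brightest probe was used among those detected above background on the 2 arrays of some group, with a value in every group. Group means were fitted with limma 3.58.1 (R 4.3.3) to 6 groups (6 residual degrees of freedom), as the mean of both lines, with Benjamini-Hochberg adjustment and a threshold of 0.05. Arrays of a slide deviated together from their group means (r between 0.592 and 0.906). With 2 arrays per group and unlike slides under 1 line label, this would arise anyway, so it cannot show that cultures were paired.

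The members, lists and tests were chosen with earlier results of these data known. Named were the PIM genes, up to 4 called genes per list with the same sign on 4 of 4 slides, otherwise the gene of the largest mean, the 3 genes most alike by each measure, and markers detected on all arrays or none. STAT5A, RELB, SOCS3, IRF1, FOS, MAP3K5 and some markers were named after their values were seen or outside this rule. The procedure was tested on simulated data. Alternatives were quantile normalization, normexp with an offset of 50, the authors' table, a floor of 5 signal units, outlier spots kept, other filters, blocks, each array left out and the methods' t-test. After the data were seen, probes with a value on all 12 arrays and the block with outlier spots kept or with the authors' table, and Empa differences with 1 slide left out, were added. Promoters were read from RefSeq entries on GRCh38.p14. Figures were drawn with matplotlib 3.10.9. The number of arrays limits the precision.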

Additional observations from a re-analysis of the deposited data

How the results depend on the processing

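All 3 PIM genes kept their direction with IL-1β under every alternative, with means of 1.35 to 1.57 for PIM1 and 0.92 to 1.11 for PIM3. The PIM2 mean moved from 4.06 to 3.50 with normexp and 3.25 in the authors' table. With 1 array left out at a time, the means ran from 1.12 to 2.02 for PIM1, 3.88 to 4.21 for PIM2 and 0.79 to 1.34 for PIM3. With Empa and 1 array left out, PIM1 ran from -0.65 to 0.10, with values above 0 (0.09, 0.07, 0.10 and 0.05) without HK-2 Empa 1, HK-2 control 2, RPTEC/TERT1 control 1 and RPTEC/TERT1 Empa 2, PIM2 from 0.35 to 0.58 and PIM3 from 0.16 to 0.52, and no adjusted p was under 0.438. PIM3 had no value for probes measured on all 12 arrays or without HK-2 Empa replicate 1. Differences within slides, with 1 slide left out at a time, kept the sign of each gene with Empa. The replicate block, which compares arrays of a slide, raised the list genes called with IL-1β from 0 to 8 higher and 5 lower and changed no call for Empa. With 1 effect per treatment there were 14 higher and 7 lower, with the block and outlier spots kept 10 and 5, and 9 and 4 with the block on the authors' values. A floor of 5 signal units called 1 higher. With 1 array left out and no block the counts ran from 0 to 0. The methods' t-test called 0 list genes after adjustment, and before it 2 higher for IL-1β and 2 lower for Empa, both in HK-2. The median IL-1β difference over all genes was -0.11 here, -0.04 after quantile normalization and -0.02 after normexp. The causes of these shifts were not tested.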
